A study of Arabidopsis thaliana with 42 samples.

Results

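The comparison is the late-night step of the link1link2 mutant of Arabidopsis thaliana: 3 libraries harvested at zeitgeber time 22 (ZT22, 22 h after lights on) were set against 3 harvested at ZT18, which makes 6 of the 42 libraries of the series. All 6 came from 9-day-old seedlings that carry mutations in both LNK1 and LNK2 (LINK1 and LINK2 in the labels; alleles not given), in the Col-0 background, on MS medium at 22 °C with daily cycles of 16 h light followed by 8 h dark (long days). Lights went off at ZT16, so both harvests fell in darkness, 2 h and 6 h after dusk, and the later one came 2 h before lights on. Col-0 wild type of the same age, medium and light regime, with 3 libraries at each of the same times, served as the reference step. The study measured poly(A) RNA by sequencing in both genotypes every 4 h over the day, 36 libraries in 12 groups, and in continuous light, 6 libraries that were not used here.

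The plant circadian clock is a set of transcription factors that repress each other in turn. The MYB-like proteins CCA1 and LHY peak around dawn and repress evening genes, the pseudo-response regulators (PRR9, PRR7, PRR5 and TOC1) follow one another through the day and repress CCA1 and LHY, and the evening complex of ELF3, ELF4 and LUX acts at night. LNK1 and LNK2 are proteins without a known DNA-binding domain that join the MYB-like protein RVE8 and help it switch on afternoon and evening genes such as PRR5 and TOC1. Late night is when the wild-type plant refills dawn transcripts, lives on starch laid down by day, and grows in its hypocotyl.

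The 6 mutant libraries held 7671348 to 10078644 counts and the 6 wild-type night libraries 8256990 to 10681398. Levels are in CPM, read counts scaled to a common library size with TMM factors, in the order of libraries A, B and C. All changes are ZT22 minus ZT18 on the log2 scale with the standard error of edgeR's quasi-likelihood fit, and adjusted p-values are edgeR's over all genes tested. CPM are not divided by gene length, so they compare a gene with itself across samples and not with other genes. Mutant ZT22 libraries A and C stood apart: chloroplast-encoded genes took 2.07% and 2.28% of their counts, against 0.974% in library B, 0.890% to 1.19% at mutant ZT18 and 0.766% to 0.996% in the wild-type night libraries. Why they did so was not tested. With chloroplast share as a covariate, 2455 genes rose and 2331 fell in the mutant at an adjusted p under 0.05 of edgeR, against 2728 and 2458 without it. How far these libraries shaped single changes cannot be told, since both belong to mutant ZT22. Counts are also given without the 4 chloroplast-rich libraries of the long-day series (above 2%), which leaves library B alone at mutant ZT22, assumed to vary like the other groups. The labels do not say whether libraries A, B and C came from separate cultures, so a p-value here describes scatter among these libraries that could be partly or wholly technical. The strand of the counting is not stated, so reads of neighbours that share bases on opposite strands cannot be told apart. Such named genes include AT4G01280, AT1G69570, FKF1, BBX25, BAM9, BCAT2, CO, COL1, TPS1 and COR15B. LNK1, bHLH38, GUN4, LUX, ABF3 and DIN3 are also among them, and the list is not complete. In whole seedlings, fewer cells of a type and less RNA per cell cannot be told apart.

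LNK2 (AT3G54500, chr3:20175370-20179070, minus strand of the TAIR10.1 annotation) was at 26.1, 28.4 and 29.7 CPM at mutant ZT18 and at 20.6, 20.5 and 19.0 CPM at mutant ZT22. In wild type it was at 7.44, 8.60 and 6.05 CPM at ZT18 and at 136, 103 and 145 CPM at ZT22. The mutant step was a fall of every library below the ZT18 range (log2 change -0.49 ± 0.14, edgeR adjusted p = 0.010), the wild-type step a rise (4.12 ± 0.15), and the difference of the steps, -4.60 ± 0.21 (adjusted p = 1.5e-15), had the smallest p among genes with a mean of at least 1 log2 CPM over the 12 night libraries. With the chloroplast-rich libraries left out, the mutant change of LNK2 was -0.45 and was not called (adjusted p = 0.19).

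LNK1 (AT5G64170, chr5:25672466-25676823, minus strand) was at 4.51, 4.78 and 5.42 CPM at mutant ZT18 and at 6.94, 5.17 and 4.57 CPM at mutant ZT22, ranges that overlap, and its change was not called (0.16 ± 0.15, adjusted p = 0.55). Wild type went from 0.464 ± 0.143 to 1.86 ± 0.171 CPM (mean ± SD, n = 3), so LNK1 counts were not lower in the mutant at either hour. The same held for LNK2 at ZT18, while at ZT22 mutant LNK2 was far below wild type. Around the day both loci were lowest relative to wild type at ZT2, where LNK1 was at 74.1 CPM against 252 and LNK2 at 11.9 against 729.5. LNK1 shares 245 bases with AT5G64160 on the opposite strand, which held 4279 counts over the 36 libraries against 16976 for LNK1. How much of the low night counts of LNK1 came from that neighbour cannot be told. Because the alleles are not given, counts over whole loci do not check the labels. The neighbouring locus upstream of LNK2, AT3G54510 (chr3:20180007-20183588, plus strand), annotated as an early-responsive-to-dehydration protein, rose from 0.752, 1.17 and 1.11 to 6.02, 8.62 and 4.85 CPM in the mutant (2.65 ± 0.36, adjusted p = 2.5e-07), and wild type held at most 0.754 CPM of it in any night library.

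Of 20518 genes tested, 2728 (13.3%) rose and 2458 (12%) fell in the mutant at an adjusted p under 0.05, 25.3% in all, and 153 and 413 of these changed at least 2-fold. In wild type 2277 (11.1%) rose and 2241 (10.9%) fell. Of the mutant rises, 1177 (43.1%) also rose in wild type, where they made up 51.7% of the rises, and of the mutant falls 1219 (49.6%) also fell in wild type (54.4% of its falls). The interaction test called 388 genes (1.89%) with a higher step in the mutant than in wild type and 500 (2.44%) with a lower one, 4.33% in all. Opposite calls were few: 33 genes rose in the mutant and fell in wild type, and 52 fell in the mutant and rose in wild type, each of them with a called difference. Across genes the steps correlated with Pearson r 0.496 and Spearman rho 0.526 over 20518 genes, which share a fit but no library and are not independent replicates. Without the chloroplast-rich libraries 1311 genes rose and 1303 fell in the mutant (2614 in all), with 1 library left at ZT22, against 2254 and 2176 in wild type (4430 in all), and the difference was called for 140 and 318.

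**Figure D1:**
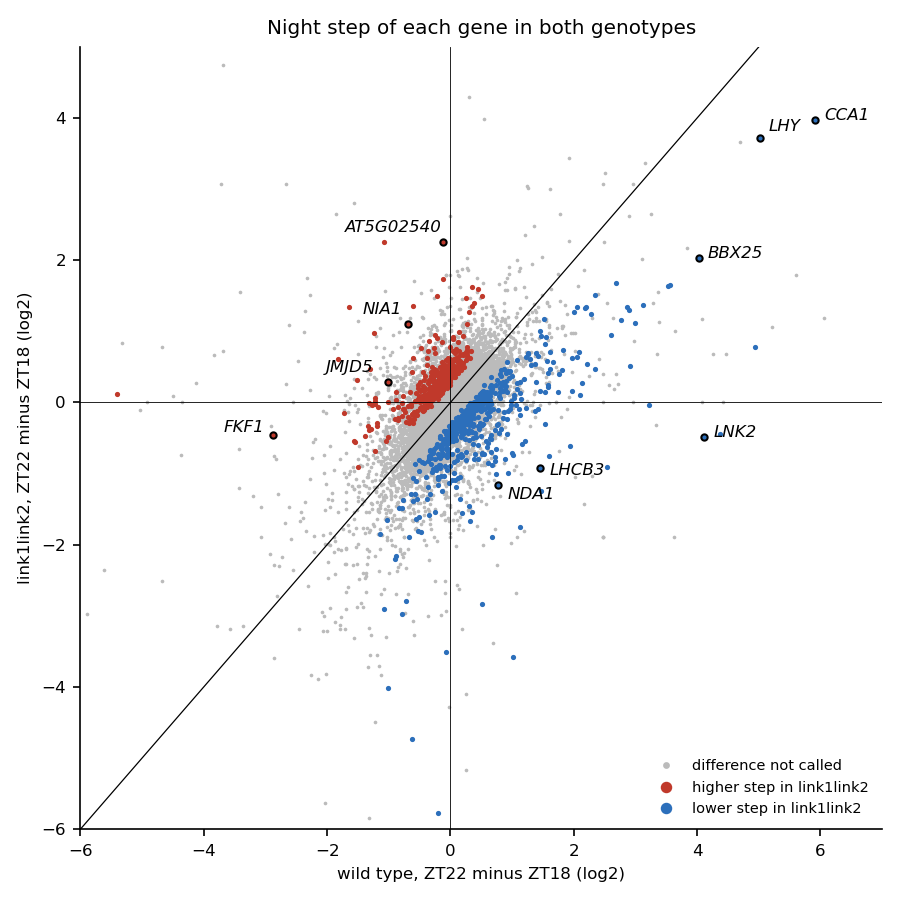
Log2 change from ZT18 to ZT22 of each of the 20518 genes in wild type (x axis) and link1link2 (y axis); the diagonal marks equal steps, and coloured points are the 388 genes with a higher and the 500 with a lower step in the mutant. CCA1, LHY and BBX25 rose in both genotypes but lie under the diagonal, LNK2, LHCB3 and NDA1 lie in the quadrant of mutant fall and wild-type rise, and NIA1 and JMJD5 in the opposite one; 3 genes lie outside the axes.

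Dawn-phased clock genes had the highest median change among the lists with more than 1 gene tested. Of 15 listed, 12 rose and 1, LNK2, fell in the mutant, with a median change of 1.18 against 0.02 for all genes tested; in wild type 14 rose, with a median of 3.11. CCA1 (AT2G46830) was at 1.75, 0.683 and 1.88 CPM at mutant ZT18 and at 23.8, 20.2 and 22.6 CPM at ZT22. Every ZT22 library was far above every ZT18 library, and the change of 3.98 ± 0.19 (adjusted p = 1.8e-19) was the highest of the rises ranked by the naming rule. Wild-type CCA1 went from 2.92 ± 0.629 to 178 ± 14.6 CPM (mean ± SD, n = 3), a change of 5.92 ± 0.13, and the mutant step was lower (difference -1.94 ± 0.33, adjusted p = 0.00012). LHY (AT1G01060), its close relative, was at 5.51, 5.85 and 5.76 CPM and then at 75.6, 77.1 and 73.6 CPM in the mutant. That rise of 3.72 ± 0.12 was also lower than in wild type, where LHY reached 626 ± 36.1 CPM from 19.4 ± 0.395 (difference -1.298 ± 0.17, adjusted p = 1.6e-06).

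The other MYB-like genes of this family split into those with a smaller step and those without a called difference. RVE1, which ties the clock to auxin production, rose from 18.7, 20.2 and 16.4 to 54.7, 57.8 and 60.1 CPM in the mutant, less than in wild type (1.64 ± 0.09 against 3.52 ± 0.09, difference -1.88, adjusted p = 4.9e-14). RVE7 (0.74 against 1.83) and RVE4 (1.18 against 1.51) also rose less, RVE4 by a difference of -0.34 (adjusted p = 0.033) that was not called without the chloroplast-rich libraries (adjusted p = 0.14) or on leaving out any of 8 single libraries of 12. RVE8, the partner of the LNK proteins, went from 6.27, 5.56 and 4.87 to 37.04, 31.6 and 34.7 CPM in the mutant. Its change of 2.63 ± 0.12 stood beside 2.89 ± 0.09 in wild type (difference -0.26 ± 0.17, adjusted p = 0.48). RVE2 rose from 119 to 418 CPM in the mutant and from 251 to 839 CPM in wild type, with changes of 1.81 and 1.74. A p above the threshold does not show that the steps of RVE8 and RVE2 were equal.

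Relatives of the mutated genes rose as well. LNK3 went from 0.125, 0.293 and 0.111 to 2.55, 2.59 and 2.33 CPM in the mutant (3.66 ± 0.40, adjusted p = 2.4e-09), close to the 3.79 CPM of wild type at ZT22. LNK4 was already at 1.95 ± 0.552 CPM at mutant ZT18 (mean ± SD, n = 3) and rose to 3.41 ± 0.378, while wild type had 2 counts in all at ZT18 and 79 at ZT22, 37.2 times as many for equal library sizes (95% counting interval 9.95 to 312, counting error only). PRR9, the first of the pseudo-response regulators to peak, rose from 0.143 to 0.655 CPM in the mutant, a call that was lost without any of mutant ZT18 A, ZT18 B or ZT22 A. The call of LNK4 was lost without mutant ZT18 C. When the chloroplast-rich libraries were left out, 8 of the 15 dawn genes rose in the mutant, and LNK4, PRR9 and the loci AT4G01280 and AT5G52660 lost the call.

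The list of day- to evening-phased clock genes had other calls in the mutant than in wild type over these 4 h. Of 23 listed, 10 rose and 1 fell in the mutant, against 13.3% and 12% of all genes. In wild type 5 rose and 9 fell, against 11.1% and 10.9% of all genes. The step was higher in the mutant for 10 and lower for 3. In each genotype, 4 of the rises were BBX19, CDF1, CDF2 and CDF3, so the list is not of a single phase. These genes rose by 1.64 to 3.57 in wild type. The mutant rises of TOC1, LUX, LKP2 and JMJD5 were small, 0.24 to 0.30. PRR5 (AT5G24470), which represses CCA1 and LHY, went from 10.1, 7.90 and 8.52 to 12.5, 14.0 and 11.6 CPM in the mutant and from 9.30, 11.0 and 10.7 to 7.83, 7.54 and 8.34 CPM in wild type. It therefore rose in the mutant (0.53 ± 0.13, adjusted p = 0.0022), fell in wild type (-0.38 ± 0.13, adjusted p = 0.034), and differed between them by 0.91 ± 0.19 (adjusted p = 0.0016). The wild-type fall lost its call without any of wild-type ZT18 B, ZT18 C, ZT22 A or ZT22 B. TOC1 (AT5G61380) was at 125, 109.7 and 112 CPM and then at 136, 134 and 139 CPM in the mutant, against about 73.5 and 71.2 CPM in wild type. The rise was small, 0.24 ± 0.06 (adjusted p = 0.0011), and without the chloroplast-rich libraries neither it (adjusted p = 0.076) nor its difference from wild type (0.26, adjusted p = 0.23) was called. That difference (0.28) also lost its call on leaving out any of 9 single libraries of 12.

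JMJD5 (AT3G20810), a histone demethylase of the evening loop, rose by 0.28 ± 0.09 in the mutant (adjusted p = 0.017) and changed by -1.02 ± 0.09 in wild type. The mutant libraries, 47.9, 57.9 and 59.9 CPM at ZT18 and 58.6, 72.1 and 71.1 CPM at ZT22, overlap, and leaving out mutant ZT18 A, ZT22 B or ZT22 C ended the mutant call, whereas the difference of 1.303 ± 0.13 (adjusted p = 1.7e-09) held in each case. For other genes the wild-type fall had no called counterpart in the mutant. FKF1 (AT1G68050), a blue-light receptor that times flowering, was at 3.26, 4.88 and 5.31 CPM at mutant ZT18 and at 3.36, 3.07 and 3.45 CPM at ZT22 (adjusted p = 0.12), while wild type dropped from 5.52 to 0.739 CPM; the difference was 2.41 ± 0.38 (adjusted p = 2.6e-05). GRP7, an RNA-binding protein with its own feedback loop, was at 715 ± 30.3 and 713 ± 23.5 CPM in the mutant and at 464 ± 29.7 and 269 ± 37.97 CPM in wild type (mean ± SD, n = 3; difference 0.79, adjusted p = 0.00047). BOA, COR27 and the locus AT4G33980 had differences of 0.73, 1.21 and 0.93 of the same kind, that of AT4G33980 not called without the chloroplast-rich libraries (adjusted p = 0.054).

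Within the evening complex, LUX rose by 0.27 in the mutant (adjusted p = 0.0036), ELF4 fell by 0.32 (adjusted p = 0.039) against a wild-type change of -1.34, and ELF3 was at 128 and 134 CPM with no call. The fall of ELF4 was lost without mutant ZT18 B, ZT18 C, ZT22 B or ZT22 C, and its difference of 1.02 was not. LKP2, a relative of FKF1, rose by 0.30, a call lost without mutant ZT22 C or without the chloroplast-rich libraries. The DOF repressors of flowering CDF1 (2.66), CDF2 (1.66) and CDF3 (1.60), the locus AT1G69570 (1.36) and BBX19 (1.69) rose in the mutant too. CDF2 (difference -1.91) and BBX19 (-0.99) rose less than in wild type and AT1G69570 rose more (1.01). The difference of BBX19 was lost without wild-type ZT18 A, mutant ZT18 A, ZT18 C or ZT22 C, and without the chloroplast-rich libraries. PRR7 changed by -0.31 in the mutant (adjusted p = 0.14) and by 1.53 in wild type, a difference of -1.84 (adjusted p = 0.0012). Leaving out the chloroplast-rich libraries, 8 of the 23 genes rose and 1 fell in the mutant, and the difference was called for 8 and 2.

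**Figure D2:**
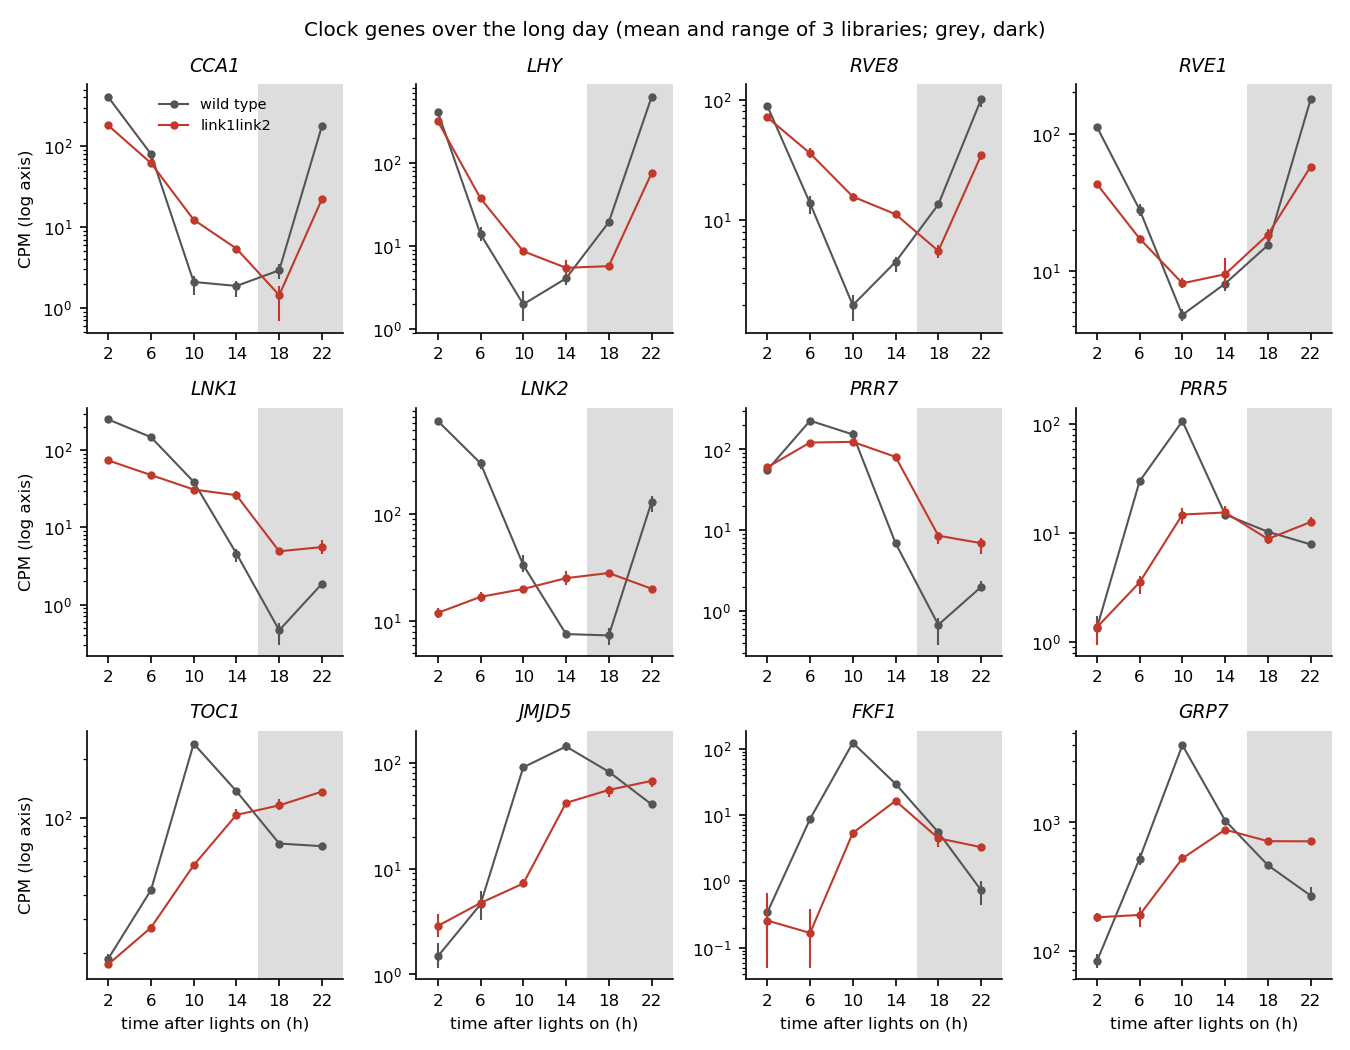
CPM on a log axis of 12 clock genes over the long day in wild type (grey) and link1link2 (red), with time after lights on in hours on the x axis; points are means of 3 libraries, lines through them their range, and the grey field is the dark period. Between 18 and 22 h the mutant lines of CCA1, LHY and RVE8 climb from lower starts than wild type, and PRR5, TOC1, JMJD5, FKF1 and GRP7 end the night above wild type.

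The promoters of the genes with a higher step in the mutant were searched for letters that clock proteins are known to bind. Windows of 250 bases before each annotated gene start were read from the RefSeq TAIR10.1 genome for 20331 of the genes tested and searched on both strands for the evening element AAAATATCT, the CCA1-binding site AAAAATCT and the G-box CACGTG. The evening element was in 31 of 384 promoters of genes with a higher mutant step (8.07%), in 9 of 499 with a lower one (1.80%) and in 2.46% of all windows. Among mutant rises it was in 1.96% and among mutant falls in 3.43%, and among wild-type rises in 1.81% and wild-type falls in 4.83%. It was in 8 of 23 promoters (34.8%) of the evening clock list, part of which is known for it. The CCA1-binding site was in 8.33%, 6.81% and 6.69% of the windows of genes with higher step, of genes with lower step and of all genes, and the G-box in 8.07%, 9.82% and 7.33%. A G-box was in 8 of 15 promoters of the dawn clock list. A match is a description of the window, not a site of binding. The 4 windows below, chosen after their values were seen, belong to genes named above; they run 5′ to 3′ along the gene, with motif letters in capitals, the evening elements lying on the opposite strand 187, 151 and 186 bases before the starts of PRR5, TOC1 and FKF1, the CCA1-binding site of PRR5 198 bases before it without overlapping the evening element, and the G-box of CCA1 193 bases before the start.
CCA1, chr2:19245341-19245590, plus strand: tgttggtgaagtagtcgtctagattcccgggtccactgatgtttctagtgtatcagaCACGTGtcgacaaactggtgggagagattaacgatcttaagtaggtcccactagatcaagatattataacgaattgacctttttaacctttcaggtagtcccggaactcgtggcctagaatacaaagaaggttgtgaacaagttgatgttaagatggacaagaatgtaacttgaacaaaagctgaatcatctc
PRR5, chr5:8358547-8358796, minus strand: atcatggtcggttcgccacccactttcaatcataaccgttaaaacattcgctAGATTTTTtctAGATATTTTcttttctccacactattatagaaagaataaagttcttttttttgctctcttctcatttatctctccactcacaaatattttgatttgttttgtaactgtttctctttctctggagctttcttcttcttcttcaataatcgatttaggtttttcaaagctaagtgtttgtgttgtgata
TOC1, chr5:24674713-24674962, plus strand: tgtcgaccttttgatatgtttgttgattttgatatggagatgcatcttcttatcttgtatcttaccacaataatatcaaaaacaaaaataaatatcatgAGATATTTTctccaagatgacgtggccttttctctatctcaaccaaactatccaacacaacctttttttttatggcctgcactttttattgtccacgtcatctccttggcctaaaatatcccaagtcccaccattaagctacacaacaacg
FKF1, chr1:25508389-25508638, plus strand: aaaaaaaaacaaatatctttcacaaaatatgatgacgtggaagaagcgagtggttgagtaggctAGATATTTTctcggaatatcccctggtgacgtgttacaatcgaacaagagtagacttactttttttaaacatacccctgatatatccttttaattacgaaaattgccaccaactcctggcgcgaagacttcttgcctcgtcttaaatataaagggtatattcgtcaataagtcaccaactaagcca

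Light-harvesting genes, which encode the chlorophyll-binding antenna proteins of both photosystems, mostly fell in the mutant and mostly rose in wild type. Of 21 listed, 13 fell and 3 rose in the mutant, against 12% and 13.3% of all genes, with a median change of -0.39. In wild type 15 rose and 2 fell, against 11.1% and 10.9% of all genes, with a median of 0.72. The step was lower in the mutant than in wild type for 16 of the 21. LHCB3 (AT5G54270) was at 1312, 1129 and 1156 CPM at mutant ZT18 and at 741, 569.7 and 589 CPM at ZT22. Every late library was below every early one, a change of -0.92 ± 0.10 (adjusted p = 3.6e-09), while wild type went up from 146, 136 and 173 to 422, 349 and 476 CPM. The steps differed by -2.37 ± 0.14 (adjusted p = 1.5e-14).

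LHCA4, an antenna protein of photosystem I, fell from 2378, 2035 and 2292 to 1776, 1402 and 1435 CPM in the mutant and rose from 359.9 ± 30.3 to 834 ± 96.0 CPM in wild type (mean ± SD, n = 3; difference -1.75, adjusted p = 1.5e-14). The 9 genes that fell in the mutant and rose in wild type were LHCA1, LHCA3, LHCA4, LHCB1.1, LHCB1.2, LHCB1.5, LHCB3, LHCB5 and LHCB6. Summed over the 21 genes, the mutant libraries held 39949, 42805 and 45609 CPM at ZT18 in rising order and 34535, 35260 and 42118 CPM at ZT22, against 14823 to 17724 and 23136 to 29504 CPM in wild type. The mutant groups overlap in this sum, of which LHCB1.3, whose mutant change was not called (0.16, adjusted p = 0.18), made up 16210.4 CPM at ZT18. LHCB2.1, LHCB2.2 and LHCB4.2 rose in the mutant by 0.51, 0.47 and 0.27, each less than in wild type (differences -2.41, -1.87 and -0.80). Those 3 rises lost their call without mutant ZT22 A, those of LHCB2.2 and LHCB4.2 also without mutant ZT18 B or ZT18 C, and all 3 without the chloroplast-rich libraries, where 12 of the 21 genes fell and the difference was called for 15. The fall of LHCB1.1 lost its call without mutant ZT22 B. The LHCB1 copies, and LHCB2.1 with LHCB2.2, are nearly identical in sequence, so their split counts are uncertain.

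**Figure D3:**
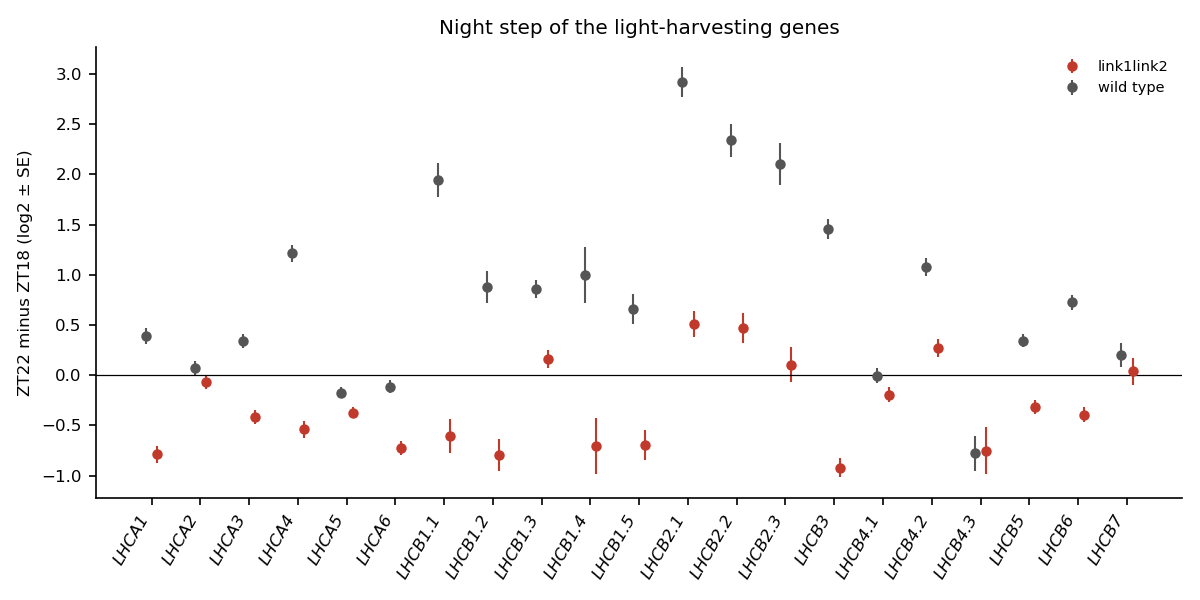
Log2 change from ZT18 to ZT22 with standard error for 21 light-harvesting genes in link1link2 (red) and wild type (grey). Most red points lie below 0 and most grey points above it, with LHCB3 at -0.92 and 1.45.

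Chlorophyll synthesis was less uniform. Of 24 genes, 7 rose and 4 fell in the mutant (median -0.05), against 12 and 1 in wild type, and 8 had a lower step in the mutant. Among all genes 13.3% rose and 12% fell in the mutant. CAO, the enzyme that makes chlorophyll b, rose from 52.9, 38.3 and 47.4 to 108, 96.6 and 104 CPM, less than in wild type (1.16 ± 0.08 against 2.77 ± 0.09; difference -1.61, adjusted p = 5.4e-13). GUN5, the large subunit of magnesium chelatase, was at 815 and 772 CPM in the mutant without a call and rose by 1.22 in wild type (difference -1.299, adjusted p = 9.8e-08). GUN4 rose by 0.77 and PORA by 3.00 from 0.218 CPM, and PORC, a light-requiring reductase of protochlorophyllide, fell by 0.60 (difference -0.45, adjusted p = 0.0057). The mutant counts were 3 and 3 when the chloroplast-rich libraries were left out. In the Calvin cycle, which fixes carbon, 7 of 11 genes fell in the mutant (median -0.35), and all 7 also fell in wild type. RCA, the activase of Rubisco, fell from 4929, 4864 and 4681 to 2925, 2395 and 2769.8 CPM, and SBPASE and EMB3119 fell by 0.75 and 0.73. RCA fell further than in wild type, by a difference of -0.38 (adjusted p = 0.015) that was lost without wild-type ZT18 B, wild-type ZT22 A or mutant ZT22 B.

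Of 8 genes of nitrate and ammonium assimilation tested, 5 rose and 2 fell in the mutant (median 0.51), against 13.3% and 12% of all genes. In wild type 5 fell (median -0.35), against 10.9% of all genes, and the step was higher in the mutant for 4. NIA1 (AT1G77760), a nitrate reductase, went from 384, 389 and 409.9 to 754, 968 and 807 CPM in the mutant and from 1023, 872 and 1188 to 654, 485 and 781 CPM in wild type. The groups do not overlap in either genotype; the mutant rise was 1.097 ± 0.25 (adjusted p = 0.0017), the wild-type change -0.68 ± 0.25 (adjusted p = 0.048), and the difference 1.78 ± 0.35 (adjusted p = 0.0025). The wild-type call was lost without any of wild-type ZT18 A, ZT18 C, ZT22 A or ZT22 B. NIR1, the nitrite reductase that takes the next step, rose from 226, 219.6 and 239 to 298, 304 and 314 CPM in the mutant (0.42 ± 0.08) and fell in wild type (-0.45 ± 0.08), a difference of 0.87 (adjusted p = 3.1e-06).

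ASN2, an asparagine synthetase, and UPM1, which makes the sirohaem that NIR1 carries, rose by 0.87 and 0.79 in the mutant, with differences from wild type of 1.22 and 0.79. Even after these rises the mutant means of NIR1, ASN2 and UPM1 at ZT22 (306, 372 and 419.5 CPM) were below those of wild type (406, 444 and 539 CPM). The second nitrate reductase NIA2 rose by 0.59 (adjusted p = 0.014), a call lost without mutant ZT18 B or ZT22 B. GLU1 and GLN2, which assimilate ammonium in leaves, fell by 0.48 and 0.28 in the mutant and fell in wild type too. The counts of 5 and 2 in the mutant and of 4 differences were the same without the chloroplast-rich libraries.

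**Figure D4:**
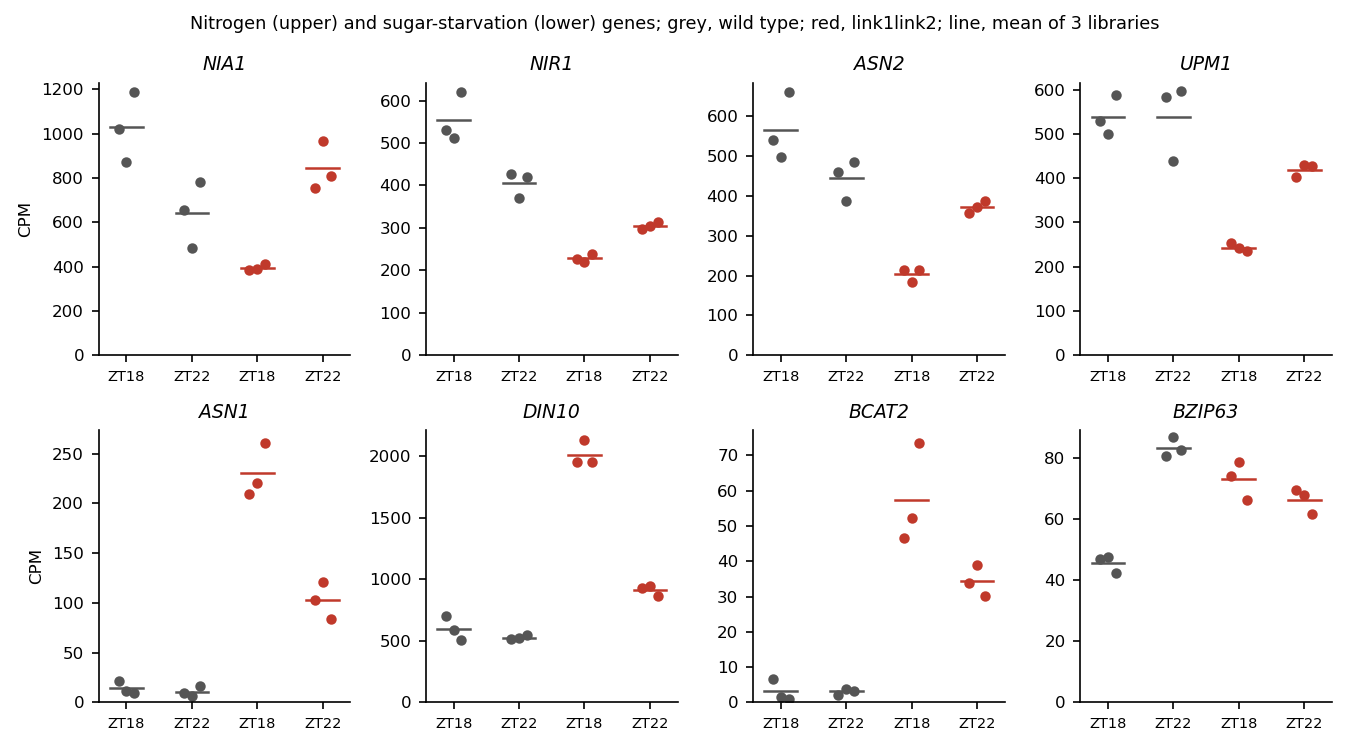
CPM in each library (points) and mean of 3 (line) at ZT18 and ZT22 in wild type (grey) and link1link2 (red) for 4 nitrogen genes (upper row) and 4 genes of sugar starvation (lower row). NIA1, NIR1, ASN2 and UPM1 climb in the mutant from levels below wild type, and ASN1, DIN10 and BCAT2 drop in the mutant from levels above wild type.

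Of 21 genes that mark sugar shortage and darkness, 5 fell in the mutant (median -0.17), against 12% of all genes, and 16 were not called. In wild type 2 fell and 5 rose, against 10.9% and 11.1% of all genes. MIOX2, a myo-inositol oxygenase, was at 197, 216 and 225 CPM at mutant ZT18 and at 41.1, 41.2 and 32.4 CPM at ZT22 (-2.48 ± 0.28, adjusted p = 2.6e-07). DIN10, a raffinose synthase induced in the dark, went from 1950.2, 2127 and 1947 to 929, 945 and 867 CPM (-1.14 ± 0.27, adjusted p = 0.0025), against 598 ± 94.98 and 526 ± 18.0 CPM in wild type (mean ± SD, n = 3). ASN1, a dark-induced asparagine synthetase, went from 209, 221 and 261 to 102, 121 and 84.0 CPM (-1.17 ± 0.30), with wild type at 14.1 and 10.7 CPM. The mutant libraries of these genes do not overlap between the times, yet no difference from the wild-type step was called for MIOX2, DIN10 or ASN1 (adjusted p = 0.27, 0.18 and 0.54). DIN3 and BCAT2 fell by 0.43 and 0.75. Without the chloroplast-rich libraries MIOX2 was the 1 of the 5 still called; ASN1, DIN10, DIN3 and BCAT2 then had changes of -0.92, -1.09, -0.26 and -0.56. BCAT2 also lost its call without mutant ZT18 C, ZT22 A or ZT22 C alone.

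BZIP63, a transcription factor of the energy response, was at 72.9 and 66.3 CPM in the mutant without a call and rose from 45.6 to 83.3 CPM in wild type (difference -1.01, adjusted p = 1.0e-08). A list named sugar-induced had 6 genes tested, and whether sugar induces each of them was not tested here. EXO, BZIP11 and TPS1 of this list fell by 0.89, 0.65 and 0.62 in the mutant, where 12% of all genes fell. These 3 fell in wild type too, TPS1 further in the mutant (difference -0.41, edgeR adjusted p = 0.012). That difference was lost without wild-type ZT22 A, mutant ZT22 C or the chloroplast-rich libraries, and the wild-type fall of TPS1 without wild-type ZT18 C, ZT22 B or ZT22 C. The mutant change of EXO was -0.56 and not called without the chloroplast-rich libraries (adjusted p = 0.052). Of 18 starch breakdown genes tested, 11 fell in the mutant (median -0.36) and 13 in wild type (median -0.69), 10 of them shared. The shares of falls over all genes were 12% and 10.9%. AMY3, a chloroplast alpha-amylase, fell from 64.9, 60.1 and 69.3 to 25.6, 26.8 and 28.2 CPM in the mutant (-1.27 ± 0.12) and by 1.92 in wild type. The phosphorylase PHS2, the phosphatase LSF2 and the maltose exporter MEX1 fell by 0.85, 0.81 and 0.78.

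BAM9 and BAM3 stood apart from that pattern. BAM9, a beta-amylase relative without catalytic activity, rose from 42.5, 37.5 and 40.8 to 63.4, 51.9 and 59.7 CPM in the mutant (0.53 ± 0.09) and from 30.3 to 140.0 CPM in wild type (difference -1.68, adjusted p = 1.1e-12). BAM3, the main leaf beta-amylase, was at 122 and 119 CPM in the mutant without a call and rose by 1.07 in wild type (difference -1.11, adjusted p = 0.00078). SEX4, a glucan phosphatase, fell less than in wild type (-0.33 against -1.19, difference 0.87); its mutant call was lost without mutant ZT18 A, ZT18 C, ZT22 A or ZT22 B. In starch synthesis 6 of 16 genes fell and 1 rose in the mutant, against 12% and 13.3% of all genes. APS1 and SS1 led the falls at -0.90 and -0.83. GBSS1, the granule-bound synthase, was not called in the mutant and rose by 1.45 in wild type (difference -1.29, edgeR adjusted p = 0.0027). Without the chloroplast-rich libraries the median mutant changes were -0.40 for starch breakdown and -0.17 for starch synthesis, against 0.01 for all genes.

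Of 34 genes of elongation growth and auxin response, 16 rose and 2 fell in the mutant (median 0.42), against 12 and 3 in wild type. The shares over all genes were 13.3% and 12% in the mutant, and 11.1% and 10.9% in wild type. YUC8, an auxin-producing enzyme, went from 6.64, 6.92 and 5.76 to 13.5, 17.2 and 18.5 CPM in the mutant (1.35 ± 0.16, adjusted p = 1.5e-08) and from 1.63 to 2.61 CPM in wild type (difference 0.68, adjusted p = 0.28). IAA29, an early auxin-response gene, went from 14.3, 17.36 and 12.3 to 30.6, 35.3 and 38.2 CPM, with wild type at 0.420 and 1.69 CPM. ATHB2, HFR1 and PRE1, all targets of PIF factors, rose by 1.16, 0.90 and 1.05 in the mutant. Of the PIF factors themselves, which drive growth in darkness, PIF1, PIF3 and PIF5 rose in the mutant, PIF4 was not called and PIF7 fell. PIF1 rose by 0.25, a call lost without mutant ZT18 B or ZT18 C, and PIF3 by 0.61. PIF5 rose from 43.7 to 70.4 CPM, less than in wild type (difference -0.58). PIF4 was at 17.2 and 19.0 CPM in the mutant, while wild type rose from 1.302 to 3.74 CPM (difference -1.39). PIF7 fell by 0.92 in the mutant (difference -0.75). The differences of PIF5 and PIF7 were both lost without wild-type ZT22 C or without the chloroplast-rich libraries, and that of PIF7 also without mutant ZT18 B or ZT22 C. The cell-wall gene EXPA1 rose by 0.28 against 1.38 in wild type (difference -1.099). The list counted 7 rises and 2 falls without the chloroplast-rich libraries, and IAA19, PRE1, EXPA1 and EXPA8 were among those that lost the call.

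Among 31 light-signalling genes 16 rose and 3 fell in the mutant (median 0.39), against 13.3% and 12% of all genes, with 12 of the rises shared with wild type. BBX25, a B-box protein that restrains HY5, went from 4.64, 4.68 and 6.42 to 23.5, 20.4 and 20.9 CPM in the mutant (2.03 ± 0.14), less than the 4.03 ± 0.13 of wild type (difference -1.99, adjusted p = 1.4e-08). BBX24 (0.96 against 2.61, difference -1.66) and PKS4 (1.37 against 3.12, difference -1.75) also rose less. HYH, a relative of the light regulator HY5, rose by 1.43 in the mutant. UVR8, the ultraviolet-B receptor, rose by 0.22 in the mutant and fell in wild type (-0.33; difference 0.54, adjusted p = 9.0e-05), and CRY1, a blue-light receptor, was at 187 CPM at both hours in the mutant against a wild-type rise of 0.35 (difference -0.35, adjusted p = 0.0015). Of 14 flowering genes 5 rose and 1, CO, fell in the mutant, against 13.3% and 12% of all genes. COL2, a relative of CO, rose from 9.40, 12.4 and 9.85 to 21.9, 23.0 and 24.5 CPM against 11.1 to 89.1 CPM in wild type (difference -1.87, adjusted p = 4.3e-12), and COL5 and COL1 rose by 1.51 and 1.34, both less than in wild type (-0.83 and -0.71). The floral repressor SVP rose by 0.21 and fell in wild type (difference 0.51), but its mutant call was lost without any of mutant ZT18 A, B, C or ZT22 A, C. UVR8 lost its mutant call without mutant ZT22 C. Without the chloroplast-rich libraries 12 light-signalling genes rose and 1 fell, 3 flowering genes rose, and UVR8, SVP and CO lost the call.

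Of 23 phenylpropanoid and flavonoid genes tested 9 fell and 1, the repressor MYBL2, rose in the mutant (median -0.35), against 12% and 13.3% of all genes. CHS, the entry enzyme of the flavonoid path, fell from 110.0, 89.2 and 84.0 to 26.7, 18.1 and 23.1 CPM (-2.06 ± 0.16, adjusted p = 2.9e-10) and by 1.36 in wild type, from a level of 342 CPM. DFR and LDOX, late enzymes of anthocyanin synthesis, were low: DFR was at 19.2, 3.02 and 3.21 CPM at mutant ZT18 and at 0, 0 and 0.373 CPM at ZT22, with wild type at 2.86 ± 0.0353 and 2.51 ± 0.439 CPM. Library A alone was high at ZT18, the fitted change of -5.77 depends on the prior count, and the difference from wild type (-5.57, adjusted p = 0.014) was not called without the chloroplast-rich libraries (adjusted p = 0.13). PAL2, which starts the phenylpropanoid path, fell in the mutant and rose in wild type (-0.41 against 0.33, difference -0.73, adjusted p = 0.00029), the mutant fall not being called without those libraries and the wild-type rise not without wild-type ZT18 B. Of 14 jasmonate genes 6 fell in the mutant (median -0.60) and 11 fell in wild type (median -0.92), against 12% and 10.9% of all genes. LOX2, which starts jasmonate synthesis, fell from 216, 94.6 and 187 to 37.8, 28.3 and 37.02 CPM, AOC2 by 2.94 and the storage protein gene VSP2 by 2.87. Leaving out the chloroplast-rich libraries, 6 flavonoid genes and 5 jasmonate genes fell.

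Of 6 heat-shock genes tested 4 fell in the mutant (median -1.02), among them the chaperones HSP70, from 35.0, 28.3 and 49.1 to 13.2, 15.9 and 11.7 CPM, and HSP90.1 (-1.13). In wild type 2 fell, HSP70 (-0.85) and HSP90.1 (-0.42), the latter losing its call without any of 5 single libraries of 6. No difference between the steps was called for the heat-shock genes. In the cold list of 12, 3 fell (COR15B, COR47 and COR413IM1), COR413IM1 less than in wild type (difference 1.02, adjusted p = 0.0095), and 1 rose, against 12% and 13.3% of all genes: CBF2, a cold regulator, had 3 counts in all at mutant ZT18 and 38 at ZT22, 11.8 times as many for equal library sizes (95% counting interval 3.75 to 59.8). Without the chloroplast-rich libraries those 3 cold falls were not called, and 3 of the 4 heat-shock falls were. Of 13 abscisic acid genes 2 were called as rises, a share near the 13.3% of all genes: ABF3 and ABI1 rose by 0.59 and 0.30, ABI1 losing its call without the chloroplast-rich libraries or without mutant ZT18 A, ZT18 B or ZT22 C alone.

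Among rises without overlap and with a mean of at least 1 log2 CPM, AT5G02540 followed RVE8 in size. It is annotated as a Rossmann-fold protein. It went from 12.5, 12.6 and 11.1 to 49.1, 60.6 and 62.4 CPM in the mutant (2.25 ± 0.15, adjusted p = 3.4e-14) and stood at 4.60 and 4.21 CPM in wild type, a difference of 2.37 ± 0.28 (adjusted p = 3.0e-07). SAG21, a mitochondrial late-embryogenesis-abundant protein tied to senescence, went from 463, 568 and 595 to 2322, 2015 and 1923 CPM (1.94 ± 0.20) and rose in wild type by 1.33. AT4G10150, a RING-type protein, and AT4G07820, of the pathogenesis-related CAP family, rose by 1.91 and 1.89 from under 5 CPM.

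The 10 falls named by the same rule came from several families. THAS1, thalianol synthase, which makes a root triterpene, fell from 36.3, 26.9 and 32.4 to 2.43, 3.54 and 4.29 CPM in the mutant (-3.18 ± 0.47, adjusted p = 1.1e-05) and by 3.57 in wild type. AT5G38020, a methyltransferase-family locus, AT1G77520, an O-methyltransferase-family locus, and AT5G39670, a calcium-binding EF-hand locus, fell by 3.01, 2.83 and 2.70, and no difference from wild type was called. PBS3, an enzyme of salicylic acid synthesis, fell from 8.27, 8.29 and 9.08 to 1.505, 1.44 and 0.373 CPM, and AT1G26390, of the berberine-bridge family, from 37.1, 37.4 and 41.3 to 5.44, 8.81 and 2.52 CPM. Their differences from wild type, -2.18 and -2.07, were not called without the chloroplast-rich libraries, and that of AT1G26390 was lost on leaving out any of 8 single libraries of 12. AT1G72416, a DnaJ-domain locus, fell from 58.8, 63.2 and 43.5 to 9.26, 7.28 and 5.87 CPM (difference -1.82, adjusted p = 9.8e-06), and that difference was called without those libraries too (-1.84). bHLH38, a regulator of iron uptake, went from 5.64, 4.78 and 16.8 to 1.505, 0.479 and 1.59 CPM, a call lost without mutant ZT18 C.

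Of the 10 genes with the smallest p for the difference between the steps, 3 were not named above. AT2G34510, a cell-wall protein of the DUF642 family, fell from 119.7, 102 and 103 to 38.3, 37.8 and 35.8 CPM in the mutant and by 0.25 in wild type (difference -1.28 ± 0.09, adjusted p = 2.8e-13). CIPK15, a kinase of calcium signalling, went from 138, 146 and 135 to 78.8, 88.5 and 86.0 CPM in the mutant and from 88.4, 88.0 and 77.1 to 117, 124 and 119.8 CPM in wild type (difference -1.24 ± 0.09). NDA1, an alternative NAD(P)H dehydrogenase of mitochondria, did likewise, from 15.5, 19.6 and 18.9 to 8.22, 8.62 and 7.55 CPM in the mutant and from 13.0 to 22.2 CPM in wild type (difference -1.93 ± 0.16, adjusted p = 1.0e-11). For both, neither genotype's groups overlap and the directions are opposite.

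Markers of particular cells and steady genes give the frame for these changes. The 12 root markers summed to 245, 299 and 311 CPM at mutant ZT18 in rising order and to 194, 252 and 257 CPM at ZT22, against 351 to 409 and 344 to 394 CPM in wild type. Of the 12, 2 fell in the mutant, a share near the 12% of all genes. They were EXPA18 and IRT1, the iron transporter of the root surface. IRT1 went from 79.4, 64.7 and 58.7 to 19.6, 29.7 and 11.5 CPM. IRT1 lost its call without mutant ZT22 C, and its difference from wild type was not called (adjusted p = 0.067). IRT1 counts enter the root sums, so its fall lowers them at ZT22. The 10 root markers not called in the mutant changed by -0.96 to 0.32. The root sums overlap between the hours, with the lower median at ZT22. The falls of THAS1 and bHLH38 stand beside this, and any part of a root share in them was not tested. The 12 markers of dividing cells summed to 360.1 to 374 CPM at mutant ZT18 and to 315 to 342 CPM at ZT22, and 5 of them fell, 1 of which was still called without the chloroplast-rich libraries. In wild type the dividing-cell markers summed to 397 to 454 CPM at ZT18 and to 351 to 382 CPM at ZT22, and 5 fell and 1 rose. No difference between the steps was called for these 12. The 5 guard-cell markers summed to between 44.3 and 52.001 CPM at mutant ZT18 and between 46.2 and 49.6 CPM at ZT22. Of 3 seed-storage markers SESA1 was at 0 in all 12 night libraries, and CRA1 had 70 counts at mutant ZT22, in library B alone, against 2 at ZT18. Of 7 reference genes 1, GAPC1, fell in the mutant by 0.17 and rose in wild type (difference -0.36, adjusted p = 0.0059), both single calls being lost on leaving out 1 of several libraries. Among all genes 12% fell in the mutant.

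**Figure D5:**
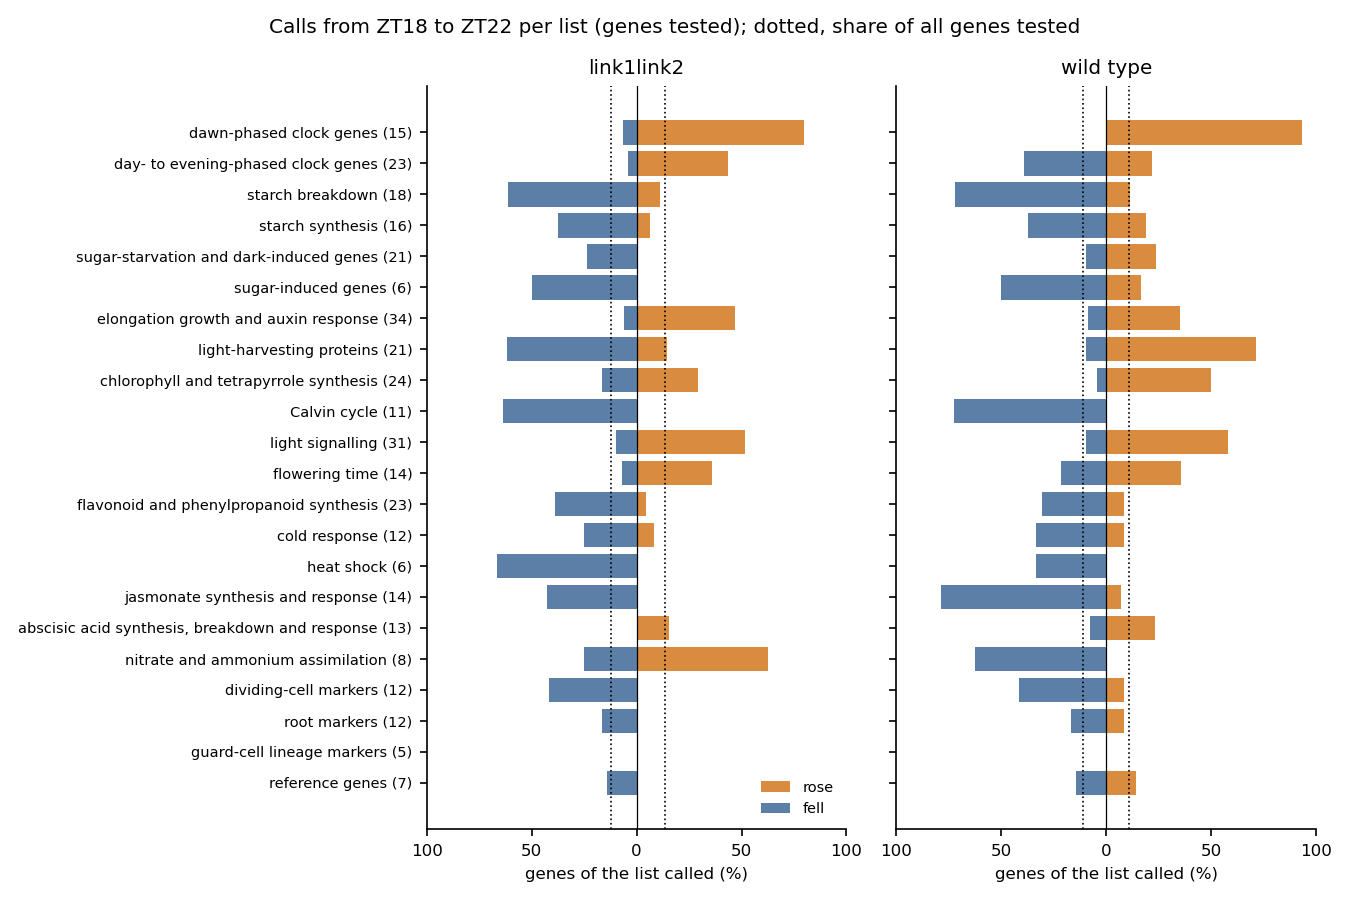
Percentage of tested genes in each list that rose (right of 0) or fell (left of 0) from ZT18 to ZT22 in link1link2 and wild type; dotted lines are the shares of all 20518 genes, 13.3% and 12% in the mutant. Dawn clock genes reach far past the background to the right in both panels, and the light-harvesting bar points left in link1link2 and right in wild type.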

How the data were processed

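Poly(A) RNA of 36 long-day libraries was given as raw read counts per locus, deposited by the authors as a table of 33602 loci; the genome build was TAIR10, per the submitters' processing notes, and the aligner and counter are not given in the sources used here. Columns named Denti were taken as the mutant, the only genotype besides Col. Loci were named from RefSeq TAIR10.1 (32835 matched, 97.7%). All 36 libraries were fitted in 1 model with edgeR 4.0.16 (R 4.3.3; TMM scaling, filterByExpr, quasi-likelihood test with Benjamini-Hochberg adjustment, 24 residual degrees of freedom), and contrasts were taken for the mutant step, the wild-type step and their difference; a call is an adjusted p under 0.05. On simulated data for the mutant step (20264 genes), 85 of 100 genes changed by 1 and 95 of 100 changed by 2 on the log2 scale were recovered, with 4 false calls. In the simulation all other genes had the same mean in all 36 libraries, and no library was made chloroplast-rich. Its figures check the code and do not give the error rates of the real calls. Alternatives were DESeq2 1.42.0, upper-quartile scaling, no filter, only the groups compared, a replicate block, chloroplast share, and libraries left out.

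Members and gene lists were chosen with earlier results of these data known. Named genes are all clock genes, up to 3 called genes per direction in each other list, the 10 largest called rises and falls in the mutant without overlap and the 10 smallest p-values of the difference, both at a mean log2 CPM of at least 1. Named outside this rule, after their values were seen, are ATHB2, BAM3, BBX24, BCAT2, BZIP63, CRY1, DIN3, EXPA1, EXPA8, GBSS1, GUN5, HFR1, IAA19, LHCA3, LHCB1.1, LHCB1.3, LHCB1.5, LHCB5, LHCB6, LOX2, LSF2, MEX1, NIA2, NIR1, PAL2, PIF1, PIF3, PIF4, PIF5, PKS4, PRE1, SEX4, SVP and UVR8.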

Additional observations from a re-analysis of the deposited data

Results flagged for a closer look

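The night step differed between the genotypes by the interaction test of edgeR (adjusted p under 0.05) for 388 genes with a higher and 500 with a lower step in the mutant. The values that follow are the mutant step minus the wild-type step on the log2 scale, for the genes named in the text. Higher in the mutant, among clock genes, were the steps of PRR5 (0.91), TOC1 (0.28), JMJD5 (1.303), FKF1 (2.41), ELF4 (1.02), BOA (0.73), GRP7 (0.79), COR27 (1.21), AT4G33980 (0.93) and AT1G69570 (1.01). Lower among clock genes were those of LNK2 (-4.60), LNK1 (-1.81), LNK4 (-4.17), CCA1 (-1.95), LHY (-1.298), RVE1 (-1.88), RVE4 (-0.34), RVE7 (-1.09), PRR7 (-1.84), CDF2 (-1.91) and BBX19 (-0.99). All light-harvesting genes of this kind named in the text had a lower step in the mutant: LHCA1 (-1.18), LHCA3 (-0.76), LHCA4 (-1.75), LHCB1.1 (-2.55), LHCB1.2 (-1.67), LHCB1.3 (-0.69), LHCB1.5 (-1.36), LHCB2.1 (-2.41), LHCB2.2 (-1.87), LHCB3 (-2.37), LHCB4.2 (-0.80), LHCB5 (-0.66) and LHCB6 (-1.12). Chlorophyll and carbon fixation genes with a lower step were CAO (-1.61), GUN5 (-1.299), PORC (-0.45) and RCA (-0.38). Nitrogen genes with a higher step were NIA1 (1.78), NIR1 (0.87), ASN2 (1.22) and UPM1 (0.79). In carbohydrate genes the differences were BAM3 (-1.11), BAM9 (-1.68), GBSS1 (-1.29), SEX4 (0.87), TPS1 (-0.41) and BZIP63 (-1.01). In growth, light-signalling and flowering genes they were PIF4 (-1.39), PIF5 (-0.58), PIF7 (-0.75), EXPA1 (-1.099), BBX24 (-1.66), BBX25 (-1.99), PKS4 (-1.75), CRY1 (-0.35), UVR8 (0.54), COL1 (-0.71), COL2 (-1.87), COL5 (-0.83) and SVP (0.51). The remaining differences were DFR (-5.57), PAL2 (-0.73), PBS3 (-2.18), COR413IM1 (1.02), GAPC1 (-0.36), AT1G26390 (-2.07), AT1G72416 (-1.82), AT2G34510 (-1.28), AT5G02540 (2.37), CIPK15 (-1.24) and NDA1 (-1.93). The groups hold 3 libraries each, so single libraries far from the others were not tested for. Scatter of library pairs was measured as chi-square per degree of freedom against counting noise, chloroplast loci included. At mutant ZT22 it was 6.64 for A with B, 7.62 for B with C and 2.97 for A with C. Pairs in the other night groups lay between 1.99 and 3.05. Library B, kept alone at mutant ZT22 without the chloroplast-rich libraries, thus differed most from its group.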

How the results depend on the processing

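Every alternative kept the sign of each named change that was called. Without the chloroplast-rich libraries 1311 genes rose and 1303 fell in the mutant (2614 in all), and the difference was called for 140 higher and 318 lower (458 in all); this leaves library B alone at mutant ZT22, with fewer libraries tested. Fitted on the libraries of the compared groups only, the difference was called for 797 lower genes; the cause was not tested. Leaving out 1 library at a time gave 2107 to 2334 rises and 1952 to 2142 falls in the mutant (4121 to 4404 in all), 1678 to 2043 and 1662 to 1949 in wild type (3340 to 3927 in all), and 239 to 347 higher, 377 to 444 lower and 641 to 774 differences in all; the lowest counts of higher steps were 239 without mutant ZT18 B and 242 without wild-type ZT18 C. With DESeq2 2231 rose and 2191 fell in the mutant, and 299 and 484 differed. Upper-quartile scaling, no filter on low counts, chloroplast share as a covariate and organelle-encoded loci left out kept the counts within 1.5 times. No label ties the letter of a column to a replicate number, and the correlations of same-letter deviations, -0.089 to 0.18, did not show that they pair the samples; with the letter as a replicate block 2765 rose and 2512 fell in the mutant and 406 and 523 differed. Named genes with a mean under 1 CPM in a group of the comparison (AT3G54510, CBF2, CDF1, COR15B, CRA1, DFR, EXPA18, FKF1, IAA29, LDOX, LNK1, LNK3, LNK4, PKS4, PORA, PRE1, PRR7, PRR9) rest on few counts there; their fitted changes, and differences such as those of LNK1, LNK4 and FKF1, depend on the prior count.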
